A study of Mus musculus with 3 samples.

Results

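Interferon-stimulated genes are the genes that cells switch on when an interferon binds its receptor. A list of 41 of them was found by gene symbol among the 20738 named genes of 3 two-colour arrays, and all 41 were measured. The list has 30 type I antiviral genes, 7 GTPase genes known for their induction by interferon-gamma, and 4 genes of interferon regulatory factors (Irf). Each array set RNA of whole proximal jejunum, the stretch of small intestine after the duodenum, of a mouse labelled Sox4 vilCre KO against RNA of whole proximal jejunum labelled wild-type. On each array Cy5 marked the knockout and Cy3 the wild type. Villin-Cre is a recombinase transgene driven in the intestinal epithelium, so Sox4 is deleted there and not in the immune, vascular, muscle and nerve cells that whole jejunum also holds. Strain, age and sex are not in the labels used here, nor is it said whether wild-type RNA came from a pool or from mice with Cre. All 3 arrays form 1 group, the Sox4 knockout, with n = 3 different knockout mice.

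Type I interferons (alpha and beta) act through the receptor Ifnar and type III interferons (lambda) through Ifnlr1 with Il10rb, the latter mainly on epithelium. Both activate Stat2, which works with Irf9 at the interferon-stimulated response element (ISRE). Interferon-gamma, made by T cells, natural killer cells and innate lymphoid cells, acts through Ifngr and, in promoters, the gamma-activated site (GAS). The products block viral replication, sense foreign nucleic acid, or, for the GTPases, attack vacuoles that hold parasites or bacteria. The gut epithelium keeps a low level of these genes without infection.

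A value below 0 on the log2 scale means less RNA in the knockout than in wild type, and errors are SDs over n = 3 arrays. Neither the base of the logarithm nor which dye is the numerator is stated in the labels or the deposited values. The direction was taken from the dyes in the labels, and every sign would turn if the values were Cy3 over Cy5. Sox4 itself had ratios of -0.66, 0.18 and -0.46 on arrays 1, 2 and 3, so on array 2 the library labelled Sox4 knockout was not below wild type. The Y-linked gene Eif2s3y had a mean of -7.28 ± 0.25 and Xist one of 1.71 ± 0.18, both past the threshold, so sex and genotype cannot be told apart in any result below. Over all genes 68 passed the threshold of an adjusted p of 0.05 in limma's moderated test, which is 0.328% of them. In whole tissue, fewer cells of a type and less RNA per cell cannot be told apart.

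No interferon-stimulated gene passed that threshold in limma's test. On simulated data of 3 arrays the same test called 0 of 50 changes of 0.5 on the log2 scale and 20 of 50 of 1. All member means lay between -0.74 and 0.46, so changes of their size could be missed. The smallest adjusted p among the 41 was 0.0821, for Ifi27. At an unadjusted p under 0.05, 10 members were lower and 2 higher. That is 24.4% lower, against 14.3% of all genes, and 4.88% higher, against 12.0% of all genes. In both directions together it is 29.3% of members against 26.3% of all genes, close to the background. The 10 lower members were Ifi27, Isg15, Mx1, Bst2, Rtp4, Oasl1, Usp18, Rsad2, Oas2 and Gbp3, and the 2 higher were Irf8 and Oas3. Leaving out array 1, 2 or 3 gave 3 (7.32%), 5 (12.2%) or 11 (26.8%) lower members, against 8.25%, 11.9% and 10.3% of all genes. The share of lower members was thus near that of all genes without array 1 or 2, and above it without array 3.

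The classes differed in where their ratios lay. Over the type I antiviral genes the median of the means was -0.19, and over the GTPases and Irf factors together it was 0.11, where the median over all genes was -0.03. Array by array the type I median was -0.35, -0.29 and 0.09, and that of the GTPases and Irf factors 0.24, -0.04 and 0.08. The type I median minus the other was -0.59, -0.25 and 0.02 on arrays 1, 2 and 3. Against the GTPases alone, without the Irf factors, it was -0.59, -0.25 and -0.11. The gap was thus widest on array 1 and narrowest on array 3. Over the means the difference was -0.30, and it became -0.12, -0.35 and -0.42 when arrays 1, 2 and 3 were left out in turn. These medians are descriptions with no test.

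**Figure D1:**
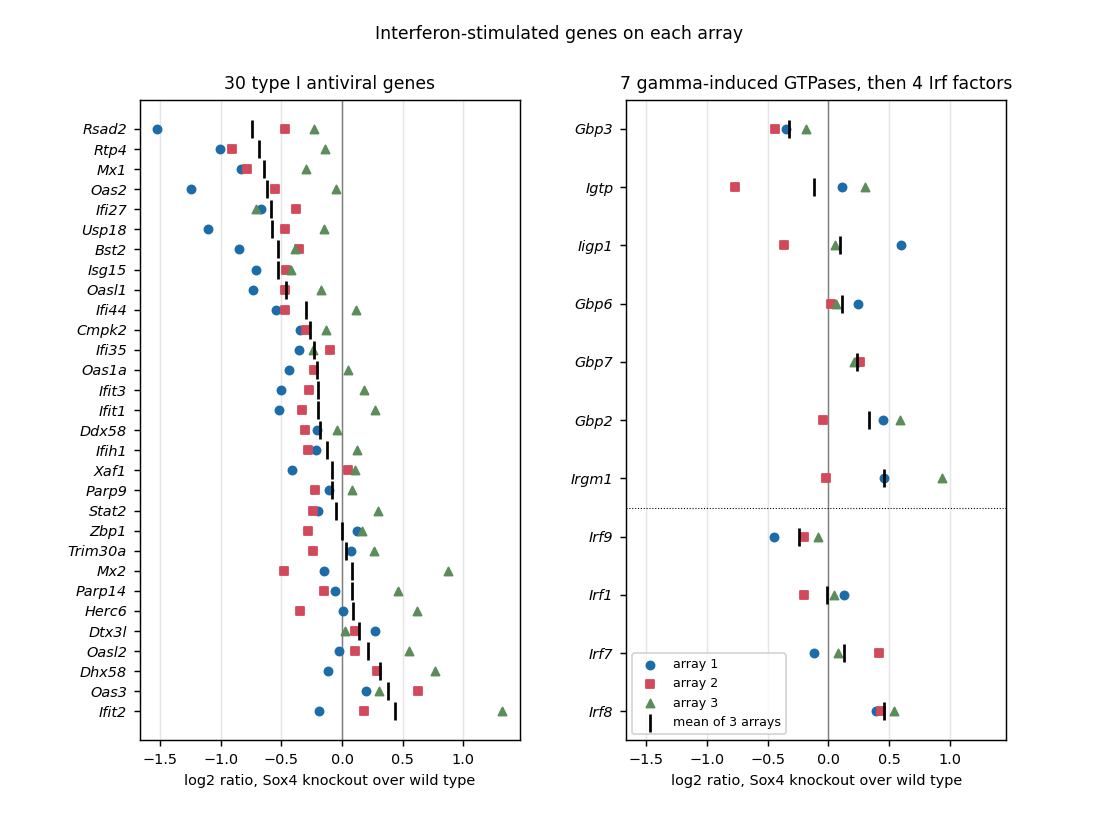
Log2 ratio of knockout over wild type (horizontal axis) for each of the 41 members (vertical axis), with circles, squares and triangles for arrays 1, 2 and 3 and a black tick for their mean. Most type I genes have their lowest ratio on array 1 and their highest on array 3, and the means run from -0.74 (Rsad2) to 0.46 (Irf8).

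**Figure D2:**
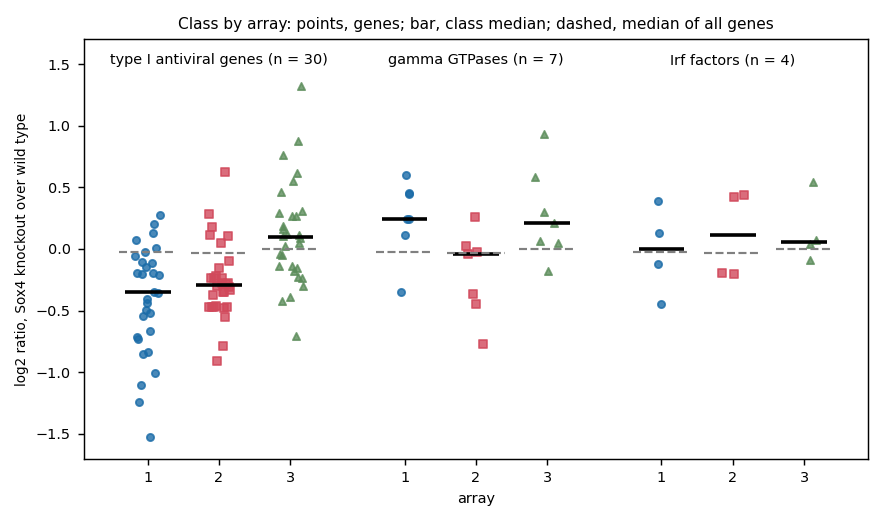
Log2 ratios of the members (points) on each array for the type I antiviral genes (n = 30), the gamma-induced GTPases (n = 7) and the Irf factors (n = 4), with a solid bar at the class median and a dashed line at the median of all genes. The type I medians are -0.35, -0.29 and 0.09 on arrays 1, 2 and 3, and those of the GTPases are 0.24, -0.04 and 0.21.

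Array 3 stood apart for the antiviral genes. Of the 30 type I genes, 25 were below 0 on array 1 and 24 on array 2, but 12 on array 3, where 52.6%, 53.0% and 50.02% of all genes were. For 25 of the 30 the highest of the 3 ratios was on array 3, a share of 83.3% against 36.5% of all genes. For 19 the lowest ratio was on array 1, a share of 63.3% against 32.8% of all genes. Below 0 on all 3 arrays were 12 of the 30, a share of 40.0% against 27.3% of all genes. Above 0 on all 3 were Oas3 and Dtx3l, or 6.67% against 23.2% of all genes.

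In the ISG15 system the modifier and its protease were below 0 on all arrays, and the ligase was not. Isg15, a ubiquitin-like protein attached to other proteins during the antiviral response, had ratios of -0.71, -0.46 and -0.42 on arrays 1, 2 and 3. All lay below 0, with a mean of -0.53 ± 0.16 (n = 3, 1.44-fold lower, 95% interval -0.83 to -0.23, adjusted p = 0.0865). Its 2 features averaged -0.42 and -0.64, so both were below 0. Usp18, which removes Isg15 and dampens receptor signalling, had -1.10, -0.47 and -0.15, with the ratio on array 1 far below the others. Herc6, the ligase that attaches Isg15 in mice, had 0.00, -0.35 and 0.62 and so had no common sign.

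Among the effectors, Ifi27, a small membrane protein gene that the platform lists as Ifi27l1, was below 0 on all arrays. Its ratios were -0.67, -0.38 and -0.70 on arrays 1, 2 and 3, with a mean of -0.58 ± 0.18 (n = 3, 95% interval -0.90 to -0.27, adjusted p = 0.0821). Bst2 (tetherin), which holds budding virus on the cell surface, had -0.85, -0.35 and -0.39 (mean -0.53 ± 0.28, adjusted p = 0.108). Rtp4, an interferon-induced chaperone of receptors, had -1.01, -0.91 and -0.14, with array 3 near 0. Ifi35 was also below 0 throughout, at -0.36, -0.10 and -0.24. None of these reached the threshold. Ifi44 had -0.54, -0.47 and 0.12 and Xaf1, a gene linked to cell death, -0.41, 0.05 and 0.10, both with a sign change between arrays. Trim30a, a ubiquitin ligase gene of the tripartite motif family, had a mean of 0.03 ± 0.25.

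Rsad2 (viperin), which makes a nucleotide that stops viral RNA synthesis, had the lowest mean of all members. Its ratios were -1.53, -0.47 and -0.23 on arrays 1, 2 and 3, giving -0.74 ± 0.69 (n = 3, 95% interval -1.40 to -0.08, adjusted p = 0.159). The ratio on array 1 was far below the other two. The statistics of Rsad2, and those of Oas3 below, were chosen after their values were seen. Its chromosomal neighbour Cmpk2, a mitochondrial nucleotide kinase that supplies the same reaction, had -0.35, -0.30 and -0.13, all below 0 but closer to it.

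The oligoadenylate synthetases make a messenger that activates the RNA-cutting enzyme RNase L, and they did not share a sign. Oas2 had -1.25, -0.55 and -0.05 on arrays 1, 2 and 3. Oas3 had 0.20, 0.63 and 0.31 (mean 0.38 ± 0.22, 95% interval 0.05 to 0.71, adjusted p = 0.157). These neighbours on the chromosome did not overlap in their ratios, Oas2 below 0 and Oas3 above 0 on every array. Oas1a had -0.44, -0.23 and 0.05, but its 2 features averaged -0.52 and 0.10. Oasl1, which lacks synthetase activity and restrains translation of Irf7, had -0.73, -0.47 and -0.18, whereas Oasl2 had -0.03, 0.11 and 0.55.

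Mx1 and Mx2 encode dynamin-like GTPases that trap viral nucleocapsids, and RefSeq lists both as transcribed pseudogenes in the reference mouse strain. Mx1 had ratios of -0.83, -0.79 and -0.30 on arrays 1, 2 and 3 (mean -0.64 ± 0.30, n = 3, 1.56-fold lower, 95% interval -1.01 to -0.27, adjusted p = 0.0881). All were below 0. Mx2 had -0.15, -0.48 and 0.88, below 0 on arrays 1 and 2 and the third highest member on array 3.

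The Ifit genes, whose products bind viral RNA lacking the host's cap methylation, were not alike. Ifit1 had -0.52, -0.33 and 0.27, and Ifit3 -0.50, -0.27 and 0.18, below 0 on arrays 1 and 2 and above on array 3. Ifit2 had -0.19, 0.18 and 1.32, the highest ratio of any member on any array. Ifit3 has a near copy, Ifit3b, with a mean of -0.16 ± 0.33, and hybridisation to both cannot be told apart.

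Of the 4 sensors of viral RNA and DNA, Ddx58 alone had the same sign on all arrays. Ddx58 (RIG-I), which detects RNA with a 5′ triphosphate, had -0.21, -0.30 and -0.04, and Ifih1 (MDA5), which detects long double-stranded RNA, -0.21, -0.28 and 0.12. Dhx58 (LGP2), a regulator of both, had -0.11, 0.29 and 0.76. Zbp1, a sensor of left-handed nucleic acid that can start necroptosis, had 0.13, -0.28 and 0.16. Features of the same gene did not always share a sign. The 2 features of Ifih1 averaged -0.44 and 0.20, those of Zbp1 -0.24 and 0.25, and those of Ddx58 -0.37 and 0.01.

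The Parp9 and Dtx3l proteins form an ADP-ribosylating ubiquitin ligase that strengthens interferon signalling, and Parp14 is a related enzyme. Their means were close to 0, at -0.08 ± 0.16 for Parp9, 0.14 ± 0.13 for Dtx3l and 0.09 ± 0.33 for Parp14. Stat2, the signalling factor of type I and type III interferon, had -0.20, -0.24 and 0.29 (mean -0.05 ± 0.30).

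The gamma-induced GTPases had a median of 0.11, and array 2 was the low one. Irgm1, which guides the other immunity-related GTPases to membranes, had 0.46, -0.02 and 0.94 on arrays 1, 2 and 3 (mean 0.46 ± 0.48, 95% interval -0.04 to 0.95, adjusted p = 0.215). Igtp (Irgm3) had 0.12, -0.77 and 0.30, and Iigp1, which coats parasite vacuoles, 0.60, -0.37 and 0.05. In 6 of the 7 GTPase genes the lowest ratio was on array 2, a share of 85.7% against 37.9% of all genes. On that same array interferon-gamma itself (Ifng) had its lowest ratio, -1.04, where arrays 1 and 3 had -0.43 and -0.45. Of 33 other gamma-induced genes, 17 (51.5%) had their lowest ratio on array 2 and 9 (27.3%) their highest, and 37.9% and 34.0% of all genes did. Their median, however, was lowest on array 3, at 0.19, 0.16 and 0.08 on arrays 1, 2 and 3. Cxcl9 (0.49, -0.58 and 0.68) and Cxcl10 (0.19, -0.22 and 0.63), chemokine genes picked with their values in view, lay below 0 on array 2 alone, whereas the related Cxcl11 (-0.04, 0.28 and -0.22) was above 0 there alone. The part of Ifng in this order was not tested.

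The guanylate-binding proteins, which break open pathogen vacuoles, were split. Gbp3 had -0.35, -0.44 and -0.18, below 0 on all arrays (mean -0.32 ± 0.13, 95% interval -0.62 to -0.03, adjusted p = 0.164). Gbp7, its neighbour, had 0.24, 0.26 and 0.21, above 0 on all and with the smallest SD of all members, 0.03 (adjusted p = 0.232). Gbp2, on the other side, had 0.45, -0.04 and 0.59 (mean 0.33 ± 0.33, adjusted p = 0.244). Gbp6 averaged 0.11 ± 0.12 over 3 features whose means ran from -0.03 to 0.24, and it has near copies, among them Gbp10 (0.40 ± 0.19), that hybridisation may not separate.

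Of the Irf factors, Irf8 had the most even ratios. This factor directs the development of dendritic cells, monocytes and B cells. Its ratios were 0.39, 0.44 and 0.54 on arrays 1, 2 and 3 (mean 0.46 ± 0.08, n = 3, 1.37-fold higher, 95% interval 0.18 to 0.74, adjusted p = 0.0931). All lay above 0. Whichever array was left out, Irf8 alone kept an unadjusted p under 0.05 in limma's test with a mean above 0. Isg15, Mx1 and Ifi27 kept one with a mean below 0. Of 23 macrophage and dendritic cell genes, 11 (47.8%) were above 0 on all arrays and 1 (4.35%) below. Over all genes the shares were 23.2% and 27.3%. The list medians lay between 0.06 and 0.31 on the arrays. At an unadjusted p under 0.05, 2 (8.70%) of the 23 were higher and 1 (4.35%) lower, against 12.0% and 14.3% of all genes. The 13 B and plasma cell genes were split, 5 (38.5%) above and 4 (30.8%) below on all arrays, with list medians between -0.01 and 0.15. The 5 above were Blk, Cd79a, Fcer2a, Cr2 and Pax5, and the 4 below were Tnfrsf17, Mzb1, Pou2af1 and Xbp1. The part of these cells in the Irf8 ratio was not tested.

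The other 3 factors lay nearer to 0. Irf9, the partner of Stat2, had -0.45, -0.20 and -0.09 (mean -0.25 ± 0.18, adjusted p = 0.270). Irf7, which amplifies the type I response, had -0.12, 0.42 and 0.08 (mean 0.12 ± 0.27, adjusted p = 0.606). Irf1, a direct target of interferon-gamma signalling, had 0.13, -0.20 and 0.04 (mean -0.01 ± 0.17, adjusted p = 0.972).

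The spread between features could be set against that between arrays. Igtp had 10 features, and their SD within an array was 0.09, 0.06 and 0.05 on arrays 1, 2 and 3, while the SD of the gene over arrays was 0.57. For Igtp the gap between array 2 and the other arrays was thus wider than the spread of repeated features. It was not so for every member. Ifih1 had feature SDs of 0.43, 0.43 and 0.50 on arrays 1, 2 and 3, above its SD over arrays of 0.22. In Dtx3l and Gbp6 too the feature SD was the larger on every array. Of the 14 members with more than 1 feature, 8 had features whose means took opposite signs. The widest gaps between features were those of Ifih1 (0.64) and Oas1a (0.62). The other 27 members rest on 1 feature each.

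**Figure D3:**
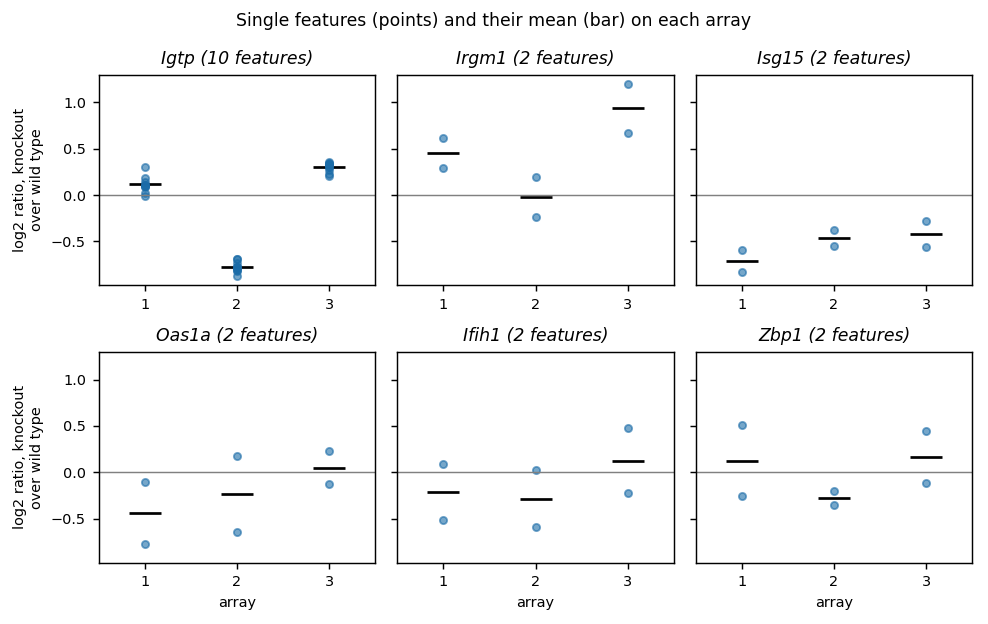
Log2 ratios of single features (points) and their mean (bar) on arrays 1 to 3 for 6 members with more than 1 feature. The 10 Igtp features lie close together on each array and below 0 on array 2, whereas for Oas1a, Ifih1 and Zbp1 the means of the 2 features over the arrays differ in sign.

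Many members sit side by side on the chromosomes. With up to 5 other protein-coding genes allowed between neighbours, 18 members fell into 7 clusters. In 6 of these the cluster held means of both signs, and in the Rsad2 and Cmpk2 pair both means were below 0. Over all 41 members 24 means were below 0 and 17 above. How often members that are not neighbours would mix signs was not tested. Mx1 and Mx2, Oasl1 and Oasl2, Oas2 and Oas3, and Gbp3 and Gbp7 are among the pairs in which a gene below 0 on all arrays lies next to one with a mean above 0.

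**Figure D4:**
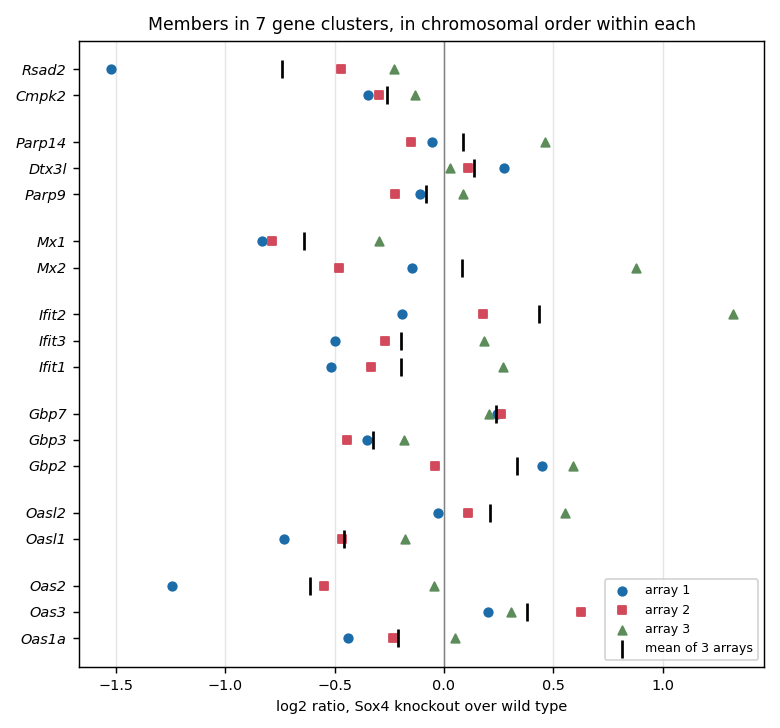
Log2 ratios (horizontal axis) of the 18 members in 7 gene clusters (vertical axis, in chromosomal order within a cluster), with symbols for arrays 1, 2 and 3 and a tick for the mean. Oas2 is below 0 and Oas3 above 0 on every array, and the same holds for Gbp3 and Gbp7.

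Promoter letters of 29 members were found in RefSeq (GRCm38.p6), and the 250 bases before each start were searched on both strands for the ISRE letters (GAAA, any 2 bases, GAAA) and the GAS letters (TTC, any 3 bases, GAA). An ISRE match was found in 14 of the 29 (48.3%), against 3.46% of 27025 genes with an entry, and a GAS match in 7 (24.1%), against 8.13%. The sequences below show the response elements of genes on either side of 0, each with 70 bases, 5′ to 3′ on the gene's strand, and with matches in capitals. Isg15 (chr4:156200851-156200920, minus strand), Rsad2 (chr12:26456533-26456602, minus), Bst2 (chr8:71537560-71537629, minus), Ifit1 (chr19:34640764-34640833, plus) and Gbp3 (chr3:142559946-142560015, plus) have a mean below 0. Oas3 (chr5:120777695-120777764, minus), Gbp2 (chr3:142620574-142620643, plus), Irgm1 (chr11:48871421-48871490, minus) and Irf8 (chr8:120736165-120736234, plus) have a mean above 0. Capitals mark ISRE matches except in Irf8, where they mark GAS matches.
Isg15: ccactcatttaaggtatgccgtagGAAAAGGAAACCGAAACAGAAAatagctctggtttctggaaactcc
Rsad2: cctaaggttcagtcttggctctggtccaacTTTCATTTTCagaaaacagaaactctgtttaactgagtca
Bst2: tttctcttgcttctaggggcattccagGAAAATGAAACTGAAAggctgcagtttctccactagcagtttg
Ifit1: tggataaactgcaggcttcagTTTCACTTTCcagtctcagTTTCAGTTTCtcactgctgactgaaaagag
Gbp3: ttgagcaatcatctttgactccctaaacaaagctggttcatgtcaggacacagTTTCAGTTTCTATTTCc
Oas3: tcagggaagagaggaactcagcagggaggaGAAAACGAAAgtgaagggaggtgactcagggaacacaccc
Gbp2: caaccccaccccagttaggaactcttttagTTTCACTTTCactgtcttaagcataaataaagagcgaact
Irgm1: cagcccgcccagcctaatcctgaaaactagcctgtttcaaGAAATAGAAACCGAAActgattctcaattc
Irf8: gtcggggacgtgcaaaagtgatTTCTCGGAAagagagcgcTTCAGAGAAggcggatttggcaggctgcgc

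Among the 29 members with a promoter entry, those with an ISRE match lay on both sides of 0. Of the members lower at the unadjusted threshold, Ifi27, Mx1, Rtp4, Usp18 and Oas2 had no entry. Isg15, Bst2, Rsad2 and Gbp3 held a match and Oasl1 did not. Of the 2 higher members, Oas3 held a match and Irf8 did not. Isg15 holds 3 overlapping matches between 78 and 57 bases before the start, and Irgm1 holds 2 between 30 and 15 bases before it, with means of opposite sign. The median of the means was -0.16 over the 14 members with an ISRE match and -0.09 over the 15 without. All 5 GTPase genes with an entry held an ISRE match, as did 9 of 20 type I genes and 0 of 4 Irf genes. In Bst2 a GAS match, not marked by capitals of its own, overlaps the ISRE matches. A match is a description of the letters only.

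Genes upstream of the response were read from lists outside the 41, and none of them passed the threshold over all genes. Of 16 measured interferon genes, 1 (6.25%) was higher and 1 (6.25%) lower at an unadjusted p under 0.05, and their median was 0.16. The shares over all genes were 12.0% and 14.3%. Ifne, the interferon of epithelia of the reproductive tract, had 0.43, 0.53 and 0.52 on arrays 1, 2 and 3 (mean 0.49 ± 0.06, adjusted p = 0.0845). Ifng had a mean of -0.64 ± 0.35 (n = 3, 95% interval -1.04 to -0.23, adjusted p = 0.0971). Markers of the cells that make interferon-gamma were below 0 with it. Of 17 T, natural killer and innate lymphoid cell genes, 12 (70.6%) were below 0 on all arrays and 1 (5.88%) above, against 27.3% and 23.2% of all genes, with list medians between -0.39 and -0.31, and their part in the Ifng ratio was not tested. Ifnb1 had 0.79, 0.00 and -0.21, and Ifnl3, a type III interferon, had a mean of 0.20 ± 0.17.

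Receptor and kinase genes lay mostly below 0. Of 9, 4 were lower and 1 higher at an unadjusted p under 0.05, where 14.3% and 12.0% of all genes were, and the median was -0.26, between -0.34 and -0.21 on the arrays. Ifngr1, the ligand-binding chain for interferon-gamma, had -0.48, -0.44 and -0.64 (mean -0.52 ± 0.11, n = 3, 95% interval -0.81 to -0.23, adjusted p = 0.0838). Il10rb, shared by the receptors for interferon-lambda and interleukin-10, had -0.47 ± 0.18 (adjusted p = 0.105), and the kinase gene Jak2 -0.41 ± 0.04 (adjusted p = 0.102). Ifnar2, a chain of the type I receptor, had -0.34, -0.32 and -0.21 (mean -0.29 ± 0.07, adjusted p = 0.178). All 4 were below 0 on each array. Tyk2, the kinase bound to Ifnar1, was the 1 higher gene, at 0.32 ± 0.09 (adjusted p = 0.155). Ifnar1, the other chain of that receptor (-0.10 ± 0.17), and Ifnlr1 (-0.08 ± 0.08) had means closer to 0.

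**Figure D5:**
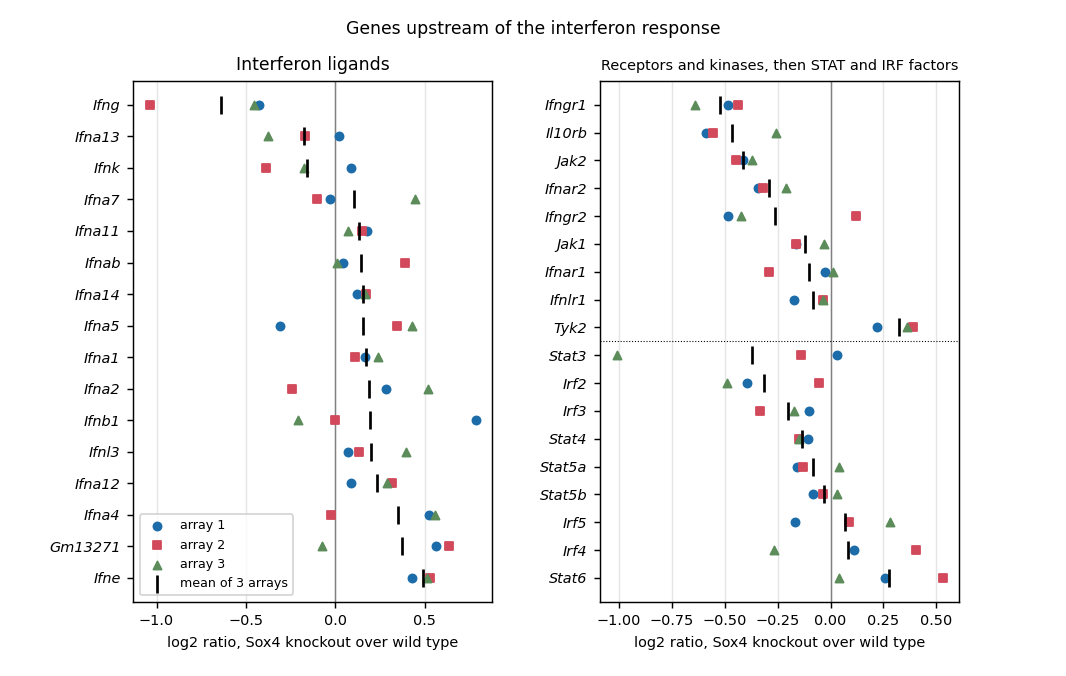
Log2 ratios (horizontal axis) of interferon genes (left) and of receptor, kinase, STAT and IRF genes outside the 41 (right), with symbols for arrays 1, 2 and 3 and a tick for the mean. Ifng, Ifngr1, Il10rb and Jak2 are below 0 on all arrays, and Ifne and Tyk2 above. Gm13271 is the name under which Ifnz was measured.

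Of 9 other STAT and IRF genes, 0 had an unadjusted p under 0.05 in limma's test, against 26.3% of all genes, and their median was -0.08. Among 12 negative regulators, 1 (8.33%) was higher and 2 (16.7%) lower at the unadjusted threshold, against 12.0% and 14.3% of all genes. Irf2bp1, a corepressor that binds Irf2, was higher (0.80 ± 0.40, adjusted p = 0.0836). Trex1, a DNase that removes cytosolic DNA (-0.46 ± 0.22), and Socs1, an inhibitor of Jak kinases (-0.47 ± 0.33), were lower at that threshold. Of 15 sensing genes, 3 were higher at it, where 12.0% of all genes were, and 0 lower. These were the kinase gene Ikbke (0.62 ± 0.27), Tlr9, a receptor for unmethylated DNA (0.50 ± 0.17), and the adaptor gene Myd88 (0.34 ± 0.05).

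Other induced genes outside the 41 gave counts in both directions. Of 53 further type I genes, 10 were higher and 10 lower at an unadjusted p under 0.05, a share of 18.9% each against 12.0% and 14.3% of all genes, and none passed the adjusted threshold, with array medians of -0.22, -0.13 and 0.10. Array 3 was thus the highest here too. The lowest were Oas1e (-1.40 ± 0.68, adjusted p = 0.0715) and Ifi27l2a, a relative of Ifi27 (-1.19 ± 0.47, adjusted p = 0.0648). Ly6e, a surface protein that blocks coronavirus entry (0.95 ± 0.50), and Lgals3bp, a secreted glycoprotein (0.68 ± 0.16), were above 0 on all arrays. Of the 33 further gamma-induced genes, 8 (24.2%) were higher and 3 (9.09%) lower, with a median of 0.20 and array medians of 0.19, 0.16 and 0.08. Psmb8 (0.54 ± 0.02) and Psmb9 (0.59 ± 0.05), subunits of the immunoproteasome, and the peptide transporter gene Tap1 (0.49 ± 0.13) were above 0 on each array, and Ido1, which breaks down tryptophan, was below on each (-0.62 ± 0.23).

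Markers of the epithelium and of the stroma were read beside these genes. Of 20 epithelial genes of the jejunum, 4 (20%) were higher and 0 lower at an unadjusted p under 0.05, with a median of -0.02. Over all genes 12.0% were higher and 14.3% lower. Of 13 endothelial and stromal genes 1 (7.69%) was lower. Their array medians of -0.35, 0.26 and 0.06 were lowest on array 1, the array on which most antiviral genes also had their lowest ratio. The part of stromal cells in those ratios was not tested.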

How the data were processed

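RNA of 3 Sox4 knockout jejuna was hybridised against wild-type RNA on 3 two-colour Agilent arrays, per the labels. The deposited values are log2 ratios, read as Cy5 (knockout) over Cy3 (wild type). Base, direction, background correction and normalization are not stated in the labels or the deposited values. The arrays had medians of 0.007, 0.003 and 0.011, so the values had been centred, and they were not scaled further. Without intensities no filter on dim features was applied, and precision is limited by having 3 arrays.

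Of 62976 features, 31465 were named through the platform annotation: 29050 by accession through RefSeq (GRCm38.p6, for names, gene order and promoters only), 2061 by current symbol, 349 by synonym and 5 by an old symbol. Features of a gene were averaged, which gave 20738 genes. With limma 3.58.1 in R 4.3.3 the mean ratio was compared with 0 (lmFit, eBayes, two-sided, Benjamini-Hochberg over all 20738 genes, threshold 0.05), after a check on simulated data. Intervals are 95% intervals of this test, and errors are SDs over arrays. If the wild-type RNA was a pool, which the labels do not say, variation among wild-type mice does not enter this test. Dye and genotype cannot be told apart because no dyes were swapped. Every member may be named, with full statistics for those past the threshold or, if none, the 4 with the smallest p in each class, and up to 4 genes of each other list. Members, classes and lists were chosen with earlier results of these data known. Alternatives covered feature averaging, centring, scaling, robust moderation, array weights, names, classes and each array left out. Figures used Python 3.11.15 and matplotlib 3.10.9.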

Additional observations from a re-analysis of the deposited data

How the results depend on the processing

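No interferon-stimulated gene passed the adjusted threshold under any of the 10 alternatives of the fit, with smallest adjusted p-values between 0.0618 (array weights) and 0.288 (without array 1). In the same fits the count over all genes was 325 when each feature was tested on its own, 265 with array weights, and between 4 and 66 with an array left out, against 68. The class medians moved by less than the spread between arrays under every alternative that kept all arrays. Moving Stat2 or Irf7 and Irf9 between classes was among these. For an array left out that yardstick decides nothing, because the spread comes from the same arrays and such a shift can hardly exceed it. With an array left out, the type I median ran from -0.28 to -0.07, against -0.19 with all arrays. The difference between the classes then ran from -0.42 to -0.12, against -0.30 with all arrays. Of the 41 members, 29 kept their sign under every alternative, 20 below and 9 above 0. With features tested on their own, only the feature with the smallest p stood for its gene. Signs of a gene's other features were not counted, and in 8 members the feature means took opposite signs. No paired analysis was possible because the arrays form 1 group. Features near background could not be filtered without intensities, and 27 members rest on 1 feature.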
